A study of Mus musculus with 6 samples.

Results

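Binding of Gli3 in the whole face of the mouse embryo was compared with binding of Hand2 in the mandibular prominence (MNP). The whole face list held 5752 Gli3 peaks, and a peak was counted as Gli3/Hand2 overlapping when it shared at least 1 bp with any of the 59583 Hand2 MNP peaks. By this rule 2736 whole face Gli3 peaks (47.6%, 95% Wilson interval 46.3 to 48.9%) had Hand2 and 3016 did not. The 3 lists of the series held 70762 peaks in all.

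Chromatin was precipitated through FLAG from pooled tissue of CD1 embryos at E11.5, in which the endogenous gene carries the 3XFlagbio tag, and sequenced (ChIP-seq). The groups used here were whole face tissue of Gli3 3XFlagbio embryos, MNP of Hand2 3XFlagbio embryos and MNP of Gli3 3XFlagbio embryos, with 2 replicates in each. The labels give the tag of both alleles as 3XFlagbio, whereas the study's list of strains names the Hand2 allele 3xFlag. All groups carry a tagged allele, and the whole face comprises the frontonasal, maxillary and mandibular prominences. The text of the series gives E10.5, in place of the E11.5 of the labels. Hand2 was profiled in the MNP only. Of the 3016 peaks without Hand2, 2115 touched no peak of the Gli3 MNP list. Among these, a peak that Hand2 does not bind and a peak of cells outside the MNP cannot be told apart. The other 901 were also called for Gli3 in the MNP, but pooled tissue does not show whether in the same cells as Hand2. Both replicates stand in 1 merged list per group without heights or read counts, so the depth is unknown, no value has an error between embryos, and tests and intervals count peaks, which are not replicates of animals.

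Gli3 is a zinc finger TF that carries the Hedgehog signal to the genome, mostly as a truncated repressor where no ligand arrives and as an activator where it does. Hand2 is a bHLH TF of the neural crest-derived mesenchyme of the distal lower jaw, where endothelin signaling turns it on, and bHLH TFs bind E-boxes (CANNTG). Hedgehog signaling from the facial epithelium patterns the mesenchyme of all facial prominences.

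Sequences of peaks near *Gli1* and *Dlx5*, and of the peaks with the most copies of the canonical Gli motif in each class, show what the classes looked like at single sites. They are the plus strand of GRCm38 (mm10), 5′ to 3′, with at most 300 bases around the midpoint. Capitals mark exact matches on both strands to the canonical Gli motif (GACCACCC), the divergent Gli motif (GACCTCCC) or the Hand-type E-box (CAGATG).
*Tmem256*, with Hand2, chr11:69838387-69838587: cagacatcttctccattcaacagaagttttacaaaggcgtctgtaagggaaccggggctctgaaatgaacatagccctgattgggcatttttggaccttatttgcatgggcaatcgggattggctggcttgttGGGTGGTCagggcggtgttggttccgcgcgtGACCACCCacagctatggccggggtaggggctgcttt
*Prdm8*, with Hand2, chr5:98167469-98167680: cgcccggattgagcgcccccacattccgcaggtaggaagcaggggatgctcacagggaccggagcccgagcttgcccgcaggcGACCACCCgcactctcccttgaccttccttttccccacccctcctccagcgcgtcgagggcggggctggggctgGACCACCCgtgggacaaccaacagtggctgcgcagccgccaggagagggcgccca
*Dlx5*, with Hand2, chr6:6875138-6875360: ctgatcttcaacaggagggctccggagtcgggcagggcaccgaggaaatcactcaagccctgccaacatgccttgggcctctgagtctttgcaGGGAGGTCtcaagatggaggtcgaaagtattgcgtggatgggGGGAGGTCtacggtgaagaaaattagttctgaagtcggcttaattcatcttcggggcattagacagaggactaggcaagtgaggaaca
*Gli1*, without Hand2, chr10:127341509-127341711: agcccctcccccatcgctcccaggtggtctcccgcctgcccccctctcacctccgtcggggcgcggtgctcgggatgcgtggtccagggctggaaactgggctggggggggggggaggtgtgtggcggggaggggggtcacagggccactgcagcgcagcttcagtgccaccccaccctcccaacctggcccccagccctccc
*Rad21*, without Hand2, chr15:51940726-51940927: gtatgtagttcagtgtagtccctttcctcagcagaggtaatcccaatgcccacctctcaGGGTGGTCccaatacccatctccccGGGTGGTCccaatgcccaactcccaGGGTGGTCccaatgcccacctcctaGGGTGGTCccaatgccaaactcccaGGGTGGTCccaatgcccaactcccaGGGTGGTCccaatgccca
*Six2*, without Hand2, chr17:85903932-85904231: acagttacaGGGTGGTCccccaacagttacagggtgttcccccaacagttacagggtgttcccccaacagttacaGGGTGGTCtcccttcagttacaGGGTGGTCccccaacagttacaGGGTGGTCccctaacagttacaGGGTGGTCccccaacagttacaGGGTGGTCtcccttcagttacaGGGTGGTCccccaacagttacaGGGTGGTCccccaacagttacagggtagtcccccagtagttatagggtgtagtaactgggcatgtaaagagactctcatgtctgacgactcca
The peaks at the promoters of *Tmem256* and *Prdm8* held 2 copies each, the most of any peak with Hand2 among those compared, although only 12 bp of the *Prdm8* peak were shared with Hand2. The peak 6836 bp from *Dlx5*, a homeobox gene of the lower jaw, held 2 divergent motifs. The *Gli1* promoter peak, without Hand2, held none of the 3 exact sequences. The most copies in peaks without Hand2 stood in short tandem repeats, with 8 in the peak whose nearest TSS is *Six2*, 215808 bp away, and 6 in the peak 50920 bp from *Rad21*.

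Where a Gli3 peak met Hand2, it mostly lay within the wider Hand2 peak. Of the 2736 overlapping peaks, 2040 (74.6%) were wholly inside a Hand2 peak, the median stretch shared was 215 bp, and 5 touched 2 Hand2 peaks. Midpoints of both factors were a median of 102 bp apart. The rule's threshold touched few peaks: 26 overlapping peaks shared 25 bp or less, and 17 peaks without Hand2 lay 25 bp or less from a Hand2 peak. Peaks without Hand2 were a median of 8208 bp from the nearest Hand2 peak (quartiles 2199 and 22159 bp). Of them, 478 (15.8%) lay 1 kb or less from a Hand2 peak, and 78 were over 100 kb away. Of the 3016, 2655 (88.0%) shared their interval between neighboring TSSs with at least 1 Hand2 peak. With 59583 Hand2 peaks in the list, many intervals hold one, and their share among all intervals was not counted. The median width was 222 bp in both classes, and the mean GC content was 53.7 ± 10.4% (SD, n = 2736 peaks) with Hand2 compared to 52.3 ± 10.2% (n = 3016 peaks) without.

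Both classes held peaks that share sequence with other peaks. In all, 353 of the 5752 peaks fell into 43 groups that share 25 bases, and the largest group had 161 peaks, of which 49 had Hand2. One stretch held copies of 1 sequence, all with Hand2. Between *Gas8* and *Rhou* on chromosome 8, from 123538747 to 123623787, the list held 43 Gli3 peaks at a median step of 1704.5 bp, and all 43 touched Hand2. All 43 midpoints were in sequence that the reference marks as repeat, and 68.2% to 100% of the 8-mers of the first copy recurred in each of the others. None of the 43 held the canonical motif or CAGATG, and 37 touched a Gli3 MNP peak. Such copies are not independent sites. The 8-mers, places, Gli motifs, CAGATG and the overlap with the Gli3 MNP list were also compared without this array. Dense CpG sequence, the other E-box forms, TSS distances from 1 to 100 kb and order numbers were not. Without this array, 47.2% of the whole face peaks had Hand2.

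Peaks with Hand2 came earlier in the replicate calls. Each entry of the whole face list names the calls merged into it, and each call starts with a number whose meaning is not stated in the sources used here. It did not follow genome order (Spearman correlation -0.0021 in replicate 1 and 0.017 in replicate 2, across peaks), while the numbers of the replicates were related to each other (0.79 across the 5752 peaks, which share both libraries). It is used here as an order number, with no unit. In the calls against the mock ChIP, the median order number was 2762 with Hand2 and 3717.5 without in replicate 1, and 2692 and 3456.5 in replicate 2. The 1438 peaks with the lowest numbers in replicate 1 held 29.9% of the peaks with Hand2 and 20.6% of those without, a difference of 9.34 points (95% interval 7.10 to 11.6). It passed Fisher's exact test on peaks, two-sided throughout, with an adjusted p = 1.85e-15. In replicate 2 the difference was 10.8 points (8.56 to 13.04, exact test, adjusted p = 3.15e-20). Adjusted p-values are Benjamini-Hochberg values over all 27 shares compared between the classes. In 10 equal bins of the mean order number, the share of peaks with Hand2 went from 61.6% in the first to 35.9% in the last, as the plot by order number shows. Among the peaks with the lowest numbers were an intron peak of *Ptch1* with Hand2, 7154 bp from the TSS (order numbers 4 and 8), and a peak with Hand2 in an intron of *Rab34*, a ciliary GTPase gene (7 and 6).

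**Figure D1:**
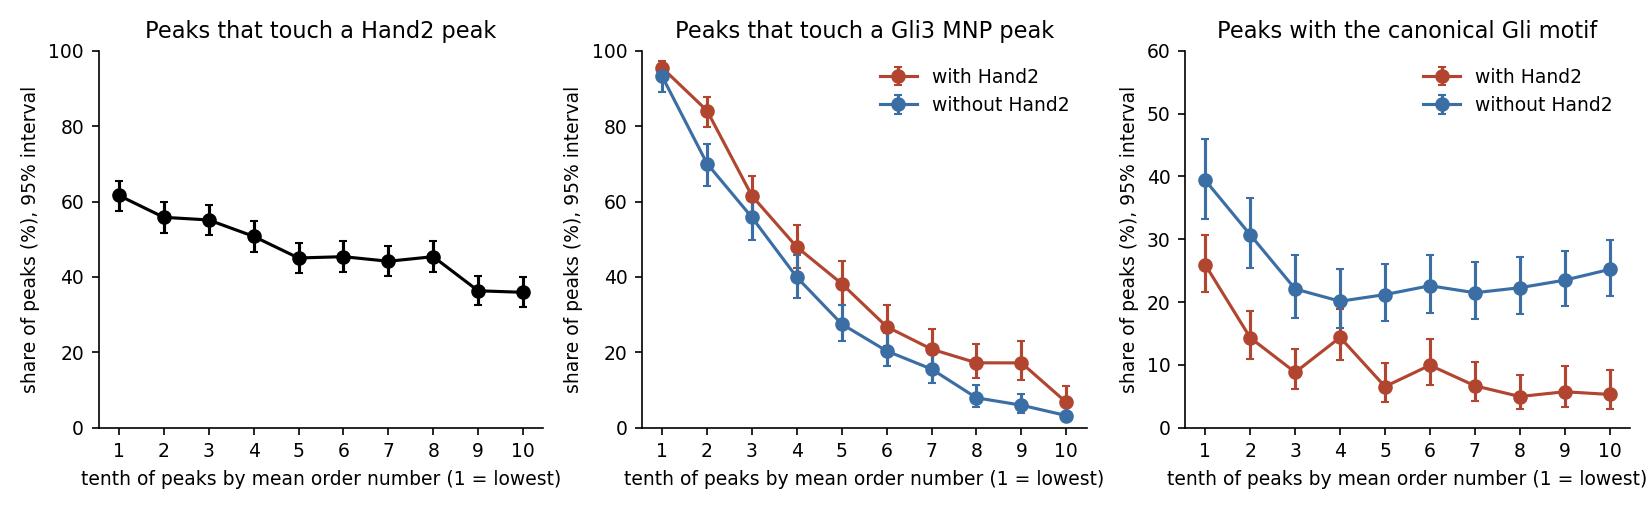
Share of whole face Gli3 peaks (y axis, %) that touch a Hand2 peak, touch a Gli3 MNP peak or hold the canonical Gli motif, in 10 equal bins of peaks by mean order number (x axis, 1 is the lowest), with 95% Wilson intervals; red is with and blue without Hand2. From the first to the last bin, the share with Hand2 went from 61.6% to 35.9%, and the canonical motif was less frequent with Hand2 than without in all 10 bins.

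Introns and intergenic sequence held like shares of both classes, while exons, promoters and stretches near the TSS differed. Introns held 34.7% of peaks with Hand2 and 35.2% of peaks without (difference -0.49 points, 95% interval -2.95 to 1.98), and intergenic sequence 41.9% and 42.1% (-0.19 points, -2.74 to 2.37). Exons outside promoters held 3.18% with Hand2 compared to 5.04% without, a difference of -1.86 points (-2.89 to -0.83, exact test, adjusted p = 0.0015). Promoters, here a midpoint within 1 kb of the TSS of a protein-coding gene, held 20.2% with Hand2 and 17.6% without (2.54 points, 0.51 to 4.57, exact test, adjusted p = 0.027). The promoter difference depended on the rule: when Hand2 had to cover at least 50% of the Gli3 peak it was -0.69 points (exact test, adjusted p = 0.54), and an odds ratio stratified by GC content was 0.963. Just outside promoters, from 1 to 5 kb, lay 6.76% of peaks with Hand2 and 10.1% without (-3.38 points, -4.82 to -1.95, exact test, adjusted p = 2.0e-05). From 5 to 20 kb lay 13.3% with Hand2 and 15.5% without (-2.18 points, -3.99 to -0.36, exact test, adjusted p = 0.034). Over 100 kb from a TSS lay 26.8% and 25.2% (1.66 points, -0.61 to 3.93, exact test, adjusted p = 0.22). This last difference passed the threshold when stratified by GC content (odds ratio 1.264) or by order number (1.156). The median distance to the nearest TSS was 35880.5 bp with Hand2 and 30238 bp without. Dense CpG sequence in the middle 200 bp, defined as an observed to expected ratio over 0.6 with GC over 50%, was present in 23.0% of peaks with Hand2 and 18.4% without (4.52 points, 2.42 to 6.62, exact test, adjusted p = 9.7e-05). This CpG share includes the chromosome 8 array and was not counted without it.

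**Figure D2:**
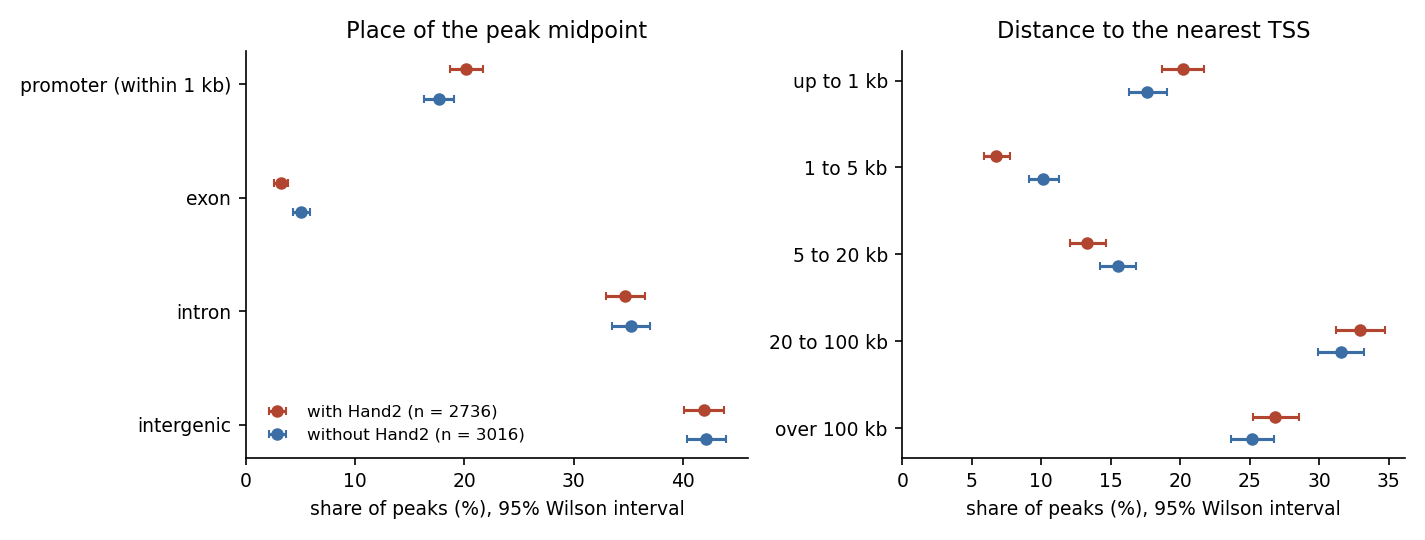
Share of peaks (x axis, %, with 95% Wilson intervals) by place of the midpoint and by distance to the nearest protein-coding TSS, for the 2736 whole face Gli3 peaks with Hand2 (red) and the 3016 without (blue). Introns and intergenic sequence held like shares, while 1 to 5 kb from a TSS held 6.76% with Hand2 and 10.1% without.

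The canonical Gli motif was less frequent where Hand2 was present. In the middle 200 bp of each peak, GACCACCC occurred in 304 peaks with Hand2 (11.1%, interval 9.99 to 12.3%) and in 735 without (24.4%, 22.9 to 25.9%). The difference was -13.3 points (-15.2 to -11.3, exact test, adjusted p = 1.54e-38). Flanks of the same length 2 kb to either side held the motif in 0.402% and 0.398%, so that it was 27.6-fold over the flanks with Hand2 and 61.3-fold without. The divergent motif GACCTCCC was present in 4.64% with Hand2 and 6.27% without (-1.62 points, -2.80 to -0.45, exact test, adjusted p = 0.016). This difference was -0.43 points (exact test, adjusted p = 0.55) when 1 peak was kept of each group of peaks that share 25 bases. Flanks held GACCTCCC in 0.402% and 0.647%, so that it was 11.5-fold over the flanks with Hand2 and 9.69-fold without. These folds were not tested. Only this exact sequence was counted, whereas the study's methods asked for at least CCTCC in peaks without a canonical motif.

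The Hand-type E-box had the opposite direction. CAGATG occurred in 24.9% of peaks with Hand2 and 15.9% without, a difference of 9.01 points (6.93 to 11.1, exact test, adjusted p = 1.48e-16). Flanks held it in 15.0% and 14.5%, which makes 1.66-fold with Hand2 and 1.09-fold without. Of the other 9 forms of the E-box, CAGCTG (3.27 points, exact test, adjusted p = 0.0041), CACATG (3.15 points, exact test, adjusted p = 0.0017) and CATATG (1.43 points, exact test, adjusted p = 0.017) were more frequent with Hand2. CACCTG, the form bound by repressors such as Snai1 and Zeb2, was less frequent (-3.02 points, exact test, adjusted p = 0.0023), and the other 5 forms did not pass the test. Both the canonical motif and CAGATG were held by 75 peaks with Hand2 (2.74%) and 115 without (3.81%). Whether they meet more or less often than the share of each alone would give was not tested. Neither sequence was found in 1826 peaks with Hand2 (66.7%) and 1917 without (63.6%).

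**Figure D3:**
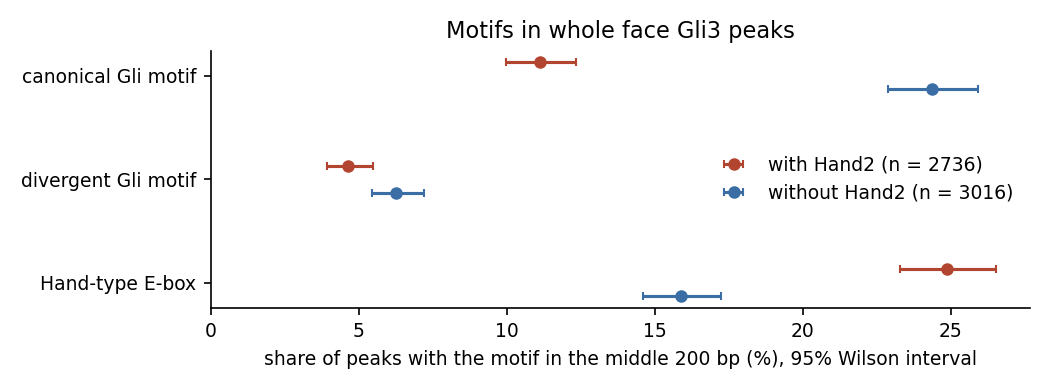
Share of peaks (x axis, %, with 95% Wilson intervals) with each motif in the middle 200 bp, for whole face Gli3 peaks with Hand2 (red) and without (blue). The canonical Gli motif was in 11.1% and 24.4%, and the Hand-type E-box in 24.9% and 15.9%.

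The intervals of the whole face list were not centered on the motif. The center of GACCACCC lay a median of 45.5 bp above the peak midpoint, toward higher coordinates, on the plus strand and 30.5 bp above on the minus strand. The same count gave -5 and 3.5 bp in the Gli3 MNP list. With Hand2 the medians were 50.5 and 31.5 bp and without it 44.5 and 29.25 bp, in the same direction in both classes. How this displacement arose was not tested. Moving all whole face intervals up by 40 bp, which changed the class of 35 of 5752 peaks, gave the canonical motif in 11.7% with Hand2 and 26.5% without, and CAGATG in 25.6% and 16.5%. CAGATG in peaks without Hand2 had no such cluster, with 11.6 to 22.9 occurrences per 1000 peaks in bins of 20 bp. In peaks with Hand2 it ran from 18.3 to 39.1, highest from 70 to 90 bp above the midpoint. Its medians there were 24.75 bp on the plus strand and 8 bp on the minus strand.

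**Figure D4:**
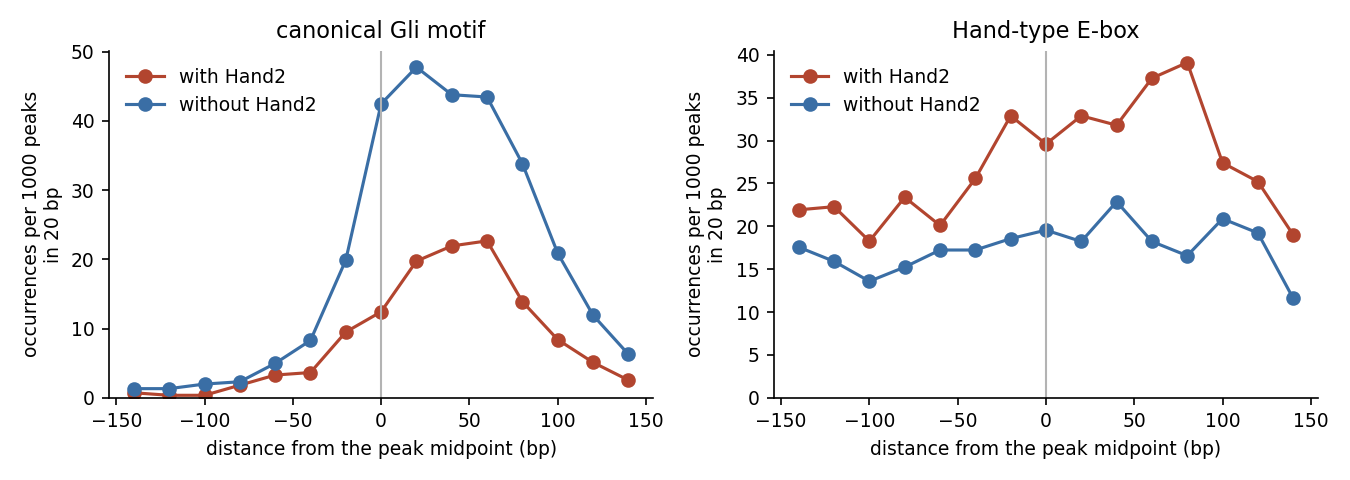
Occurrences per 1000 peaks in bins of 20 bp (y axis) by distance of the motif from the peak midpoint (x axis, bp, toward higher coordinates to the right), for peaks with Hand2 (red) and without (blue); the grey line is the midpoint. The canonical Gli motif clustered to the right of the midpoint in both classes, with 12.4 occurrences per 1000 peaks with Hand2 and 42.4 without in the bin at the midpoint.

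All 8-mers were compared between the classes, with reverse complements joined. Of 19553 8-mers present in at least 20 peaks, 214 (1.09%) were called more often with Hand2 and 66 (0.338%) more often without (exact test, adjusted over all 8-mers). Most of the first set came from the chromosome 8 array: without its 43 peaks 26 were more frequent with Hand2 and 34 without, and with 1 peak per group of peaks that share 25 bases 21 and 25 were. Without the array, the 8-mers with the lowest p-values among those more frequent with Hand2 extended the Hand-type E-box. ACATCTGG, which reads CCAGATGT on the other strand, was in 5.16% compared to 1.66%, and CATCTGGA was in 4.38% compared to 1.46%. Of these 26, 14 held CAGAT. CCCCCTCC (6.83% and 3.81%) and CCCTCCCC (8.99% and 5.80%), runs of C and T without an E-box, were present in more peaks and also more frequent with Hand2. Both hold CCTCC, the least sequence that the study's methods asked of a divergent motif. GGACCTCC, which holds CCTCC and all but the last base of the divergent motif, went the other way (2.23% with Hand2 and 4.64% without). The share of peaks with CCTCC was not counted. Of the 34 8-mers more frequent without Hand2, 9 held GACCAC or ACCACC, stretches of 6 bases of the canonical Gli motif, and 25 held neither. The lowest p-value of the 34 was that of ACCACCCA, which was in 11.7% with Hand2 and 25.1% without. AGACCACC was in 7.09% and 14.1%. Among the 25 were CCACCCAG (10.8% and 19.0%) and CCACCCAC (12.7% and 20.0%), which hold CCACCC, the last 6 bases of the canonical motif. Some of the 25 held AAGGTG or its complement, such as CAAGGTGG (1.00% and 2.62%) and CACCTTGA (0.63% and 1.92%). These overlap each other and others of the 25, such as AAGGTGGG and ACCTTGAT. Peaks outside the array that share 25 bases were still counted here.

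Peaks with Hand2 were also found more often in the MNP. Of the whole face Gli3 peaks with Hand2, 1261 (46.1%, interval 44.2 to 48.0%) touched a Gli3 MNP peak, compared to 901 (29.9%, 28.3 to 31.5%) without Hand2, a difference of 16.2 points (13.7 to 18.7, exact test, adjusted p = 9.88e-36). Presence in the Gli3 MNP list moved with the order number, from 94.6% in the first bin to 4.51% in the last. Stratified by these bins the odds ratio was 1.65, compared to 2.01 over all peaks. In both the peaks shared with the MNP and those only in the whole face, the canonical motif was less frequent with Hand2. Among peaks shared with the MNP it was in 16.1% with Hand2 and 28.5% without, and among peaks only in the whole face in 6.85% and 22.6%.

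Each peak was assigned to the closest protein-coding TSS on its left and the closest on its right. A peak between neighboring genes is thus counted at both, and once in the total of a list. Of 21938 protein-coding genes, 3430 (15.6%) were next to a peak with Hand2 and 4227 (19.3%) next to a peak without. Both kinds of peak flanked 1453 genes, which were 42.4% of the first set and 34.4% of the second. Genes with wide neighborhoods are next to more peaks: in the 25% of genes with the longest stretch between the TSSs on either side (median 450866 bp), 34.9% were next to a peak with Hand2 and 40.3% next to one without, compared to 4.83% and 7.44% in the 25% with the shortest (27145 bp). Shares of the 21 gene lists below are read beside these values, and none was tested. Intervals given for lists count peaks at the same gene as separate, although they may not be independent.

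**Figure D5:**
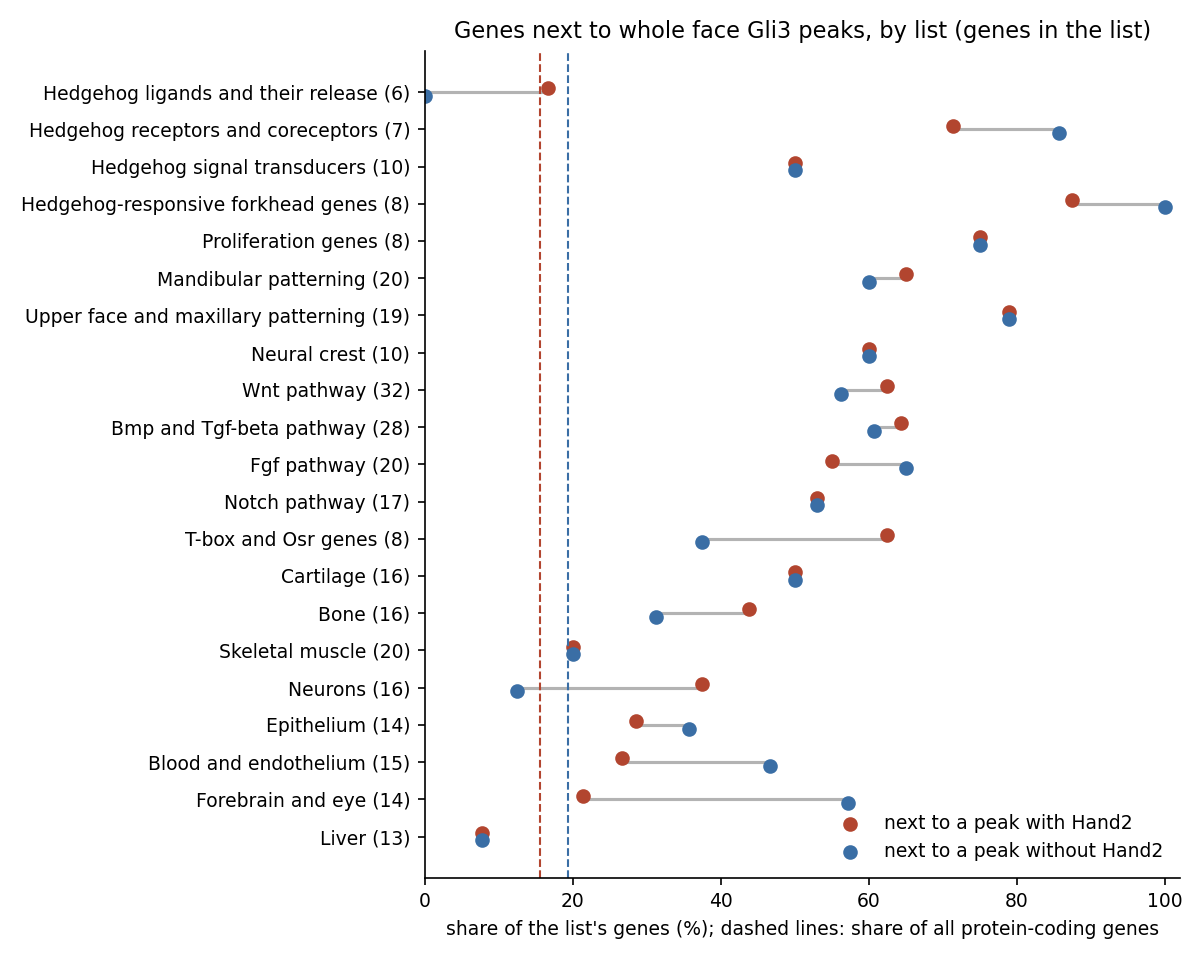
Share of the genes of each list (x axis, %) next to a whole face Gli3 peak with Hand2 (red) and without (blue), with the number of genes in parentheses; dashed lines give the shares of all protein-coding genes, 15.6% and 19.3%. Hedgehog receptors, forkhead genes and facial patterning genes sat far to the right of the lines for both classes, and the liver list to the left.

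Genes of the Hedgehog pathway were flanked by both classes, and the feedback targets differed in which class was close. Of 7 receptors and coreceptors, 5 were next to a peak with Hand2 and 6 next to a peak without. *Ptch1*, the receptor that Hedgehog signaling induces, had 10 peaks with Hand2 and 5 without. Its promoter peak had Hand2 and the order numbers 19 and 37 in replicates 1 and 2, and its nearest peak without Hand2, 8559 bp away in an intron, 2476 and 2689. *Hhip*, which binds and sequesters the ligand, had 3 with and 8 without. The coreceptor *Cdon* had 2 with Hand2 and none without, and *Gas1*, another coreceptor, had 1 and 3. Of 10 transducers, 5 were next to each class. *Gli1*, the activator induced by the pathway, had 1 peak, 364 bp from the TSS and without Hand2, with the order numbers 6 and 33. This peak lay 1264 bp from a Hand2 peak, and the nearest Gli3 peak with Hand2 was 325977 bp from the TSS, beyond other genes. *Kif7*, a ciliary kinesin of the pathway, and *Evc2*, a ciliary protein, had promoter peaks with Hand2, at 143 and 33 bp. Of the 6 genes for ligands and their release, including *Shh*, 1 had a neighboring peak: *Hhat*, which adds palmitate to the ligand, had 4, all with Hand2.

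Forkhead genes that respond to Hedgehog signals had both classes: 7 of 8 were next to a peak with Hand2 and all 8 next to a peak without, with 26 and 18 peaks. *Foxf1* had 8 with and 4 without, and its peak without Hand2 3553 bp from the TSS held 1 canonical motif and the order numbers 115 and 105. *Foxf2* had a peak with Hand2 at 1790 bp (order numbers 123 and 272) and one without at 2583 bp (935 and 2253). *Foxl1* had 4 with and 5 without, and the peak 402 bp from its TSS lacked Hand2, lying 397 bp from a Hand2 peak. *Foxd1* had 3 and 2, the nearest at 19579 bp with Hand2 and at 37073 bp without. The latter lay 1474 bp from a Hand2 peak. At a like distance downstream of *Foxd1*, the study placed a putative regulatory region and reported synergy of Gli3 and Hand2 there in reporter assays. Proliferation genes had 25 peaks with Hand2 and 9 without, so that 73.5% (interval 56.9 to 85.4%) had Hand2 compared to 47.6% of all peaks. All of these stood at 6 of the 8 genes. *Mycn* had 8 and 2, *Myc* 5 and 1, and *Ccnd1*, cyclin D1, 6 and 1, whereas *Ccnd2*, cyclin D2, had 2 and 3.

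Genes that pattern the lower jaw had 31 peaks with Hand2 and 20 without, and genes of the upper face and maxilla 38 and 34. The shares of peaks with Hand2 were 60.8% (interval 47.1 to 73.0%) and 52.8% (41.4 to 63.9%), and both intervals overlapped widely. Of 20 lower jaw genes, 13 were next to a peak with Hand2 and 12 to a peak without. *Msx1* had 6 with Hand2 and none without, while its paralog *Msx2* had none and 4. *Gsc*, a homeobox gene of the distal jaw, had 3, all with Hand2, the closest 237 bp from its TSS with 1 CAGATG. *Dlx6* had 3 and *Dlx5* 1, all with Hand2, and the *Dlx5* peak, which lies between both TSSs, is counted at both genes. *Hand2* itself had 3, all with Hand2. *Hand1* had 2 and *Lhx6* had 2, all without. Of 19 upper face genes, 15 were next to each class. *Alx1*, a homeobox gene of the frontonasal mesenchyme, had 2 without Hand2 and none with, *Dlx2* had 1 with and 3 without, and *Pax3* 1 and 3. *Six2* had a promoter peak with Hand2 at 91 bp, with 5 peaks with Hand2 and 4 without.

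Genes of 4 signaling pathways were flanked by both classes, and the number of peaks leaned to Hand2 most in the Notch list. Of 32 Wnt genes, 20 were next to a peak with Hand2 and 18 next to one without, and of 28 Bmp and Tgf-beta genes 18 and 17, with 43 and 35 peaks at the Wnt genes and 40 and 27 at the Bmp and Tgf-beta genes. *Tcf7l2*, a nuclear effector of Wnt, had 7 of each, *Axin2*, a Wnt feedback gene, had 3 with Hand2 and none without, and *Ctnnb1*, beta-catenin, had none with and 3 without. *Wnt10a*, *Wnt6* and *Sfrp1* were closest to peaks without Hand2, at 3076, 1480 and 62 bp. The Id genes, targets of Bmp, all had more peaks with Hand2 than without: *Id1* had 5 and none, *Id2* 4 and 2, *Id3* 3 and 1, and *Id4* 2 and 1. The closest peak had Hand2 at *Id1* (976 bp) and *Id3* (175 bp) and lacked it at *Id2* (272 bp) and *Id4* (602 bp). Receptors of Fgf differed: *Fgfr1* had 3 with Hand2 and none without, and *Fgfr2* and *Fgfr3* had 2 each, all without and with the closest at 338 and 23 bp. Those closest peaks of *Fgfr2* and *Fgfr3* lay 435 and 6726 bp from a Hand2 peak. Of 20 Fgf genes, 11 and 13 were next to each class, with 19 peaks with Hand2 and 27 without. Of 17 Notch genes, 9 were next to each class, with 26 peaks with Hand2 and 13 without (66.7% with Hand2, interval 51.0 to 79.4%, compared to 47.6% of all peaks). Many of the Notch peaks were at 1 gene: *Hes1*, a repressor downstream of Notch, had 13 with Hand2 and 3 without. *Jag1*, a Notch ligand, had a promoter peak with Hand2 at 942 bp, and *Heyl* one without at 31 bp. T-box and Osr genes had 19 peaks with Hand2 and 10 without, among them *Tbx2* with 5 and none, *Tbx3* with 6 and 7, and *Osr1* with 6 and 2.

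Lists of skeletal and other cell types were counted in the same way. A peak beside a gene does not show that the cell type is present. Of 10 neural crest genes, 6 were next to each class; *Snai1* had 7 with Hand2 and none without, and *Sox5* had 2 and 7. Of 16 cartilage genes, 8 were next to each class: *Sox9*, the master TF of cartilage, had 4 with Hand2 and 6 without, with the closest of the latter at 2591 bp, *Col11a1* had a promoter peak with Hand2 at 31 bp and *Col2a1* one without at 12 bp. Of 16 bone genes, 7 and 5 were next to each class, with *Runx2* at 2 and 3 and *Sp7* at 2 and none. Skeletal muscle genes were near the share of all genes, with 4 of 20 next to each class; *Plagl1* had 1 peak with Hand2, 56924 bp from its TSS, and *Myh6* had no neighboring peak. *Maf* had 2 with Hand2 and 3 without, none closer than 440462 bp. Liver genes, of a tissue not sampled, had 1 of 13 next to each class. Neuronal genes had 6 of 16 next to peaks with Hand2 and 2 without, and forebrain and eye genes had 3 of 14 with and 8 without. With only the single nearest TSS within 100 kb these were 1 and 1 for neuronal genes and 2 and 5 for forebrain and eye genes. Epithelial genes had 4 of 14 and 5, and genes of blood and endothelium 4 of 15 and 7, with *Cdh5*, an endothelial cadherin, at 6 and 1.

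The genes next to most peaks of each class differed. *Rhou* and *Gas8* had 44 and 43 peaks with Hand2 and none without, of which 43 were the copies of the chromosome 8 array. The next were *Zmiz1* (14 with, 2 without), *Hes1* (13 and 3), *Hmga2* (13 and 4), a chromatin protein of growing embryonic cells, and *Tle3* (13 and 5), a corepressor. Next to most peaks without Hand2 were *Tshz3* (11 without, 3 with), *Flrt2* (9 and 1), *Hhip* (8 and 3), *Med13l* (8 and 6), *Rybp* (8 and 4) and *Zfp536* (8 and 2). Apart from *Rhou* and *Gas8*, these neighborhoods ran from 672031 bp at *Hmga2* to 6410302 bp at *Flrt2*, and the median over all genes was 95051 bp.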

How the data were processed

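ChIP-seq with an antibody against FLAG was performed by the authors on whole face and MNP. The 2 replicates of each of 3 groups were read as 1 × 75 bp, aligned by bwa on mm10 and joined into 1 list by bedtools. Processing notes of the submitters also name HOMER, with no version. The sources used here do not name the caller of the whole face peaks. The deposited files hold peak positions and call names, with no counts, heights or p-values, so depth is unknown.

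Whole face peaks were split by sharing at least 1 bp with a Hand2 peak. Place and TSS distance are those of the midpoint, from GENCODE M21 (21938 protein-coding genes on chromosomes 1 to 19, X and Y). Motifs were counted as exact sequences on both strands in the middle 200 bp of the GRCm38 reference. Shares were compared by two-sided Fisher's exact test on peaks (Benjamini-Hochberg, 0.05), with Wilson and Newcombe 95% intervals that cover counting error only. Where several calls of 1 kind were merged (135 entries had more than 4 calls), the lowest order number was used. Genes and lists were counted without a test.

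Named were the genes the study names as targets, the 3 members of each list whose TSS was closest to peaks with Hand2, the 3 closest to peaks without, and the 5 genes with most peaks in either class, with ties. Other genes, including those given by their number of peaks, were chosen after their values were seen. Some members of the lists, and some of the sequences selected, are not reported here. The members and the lists were chosen with earlier results of these data known. Of the alternatives, those on order number, near-identical peaks and moved intervals, and the comparison inside and outside the Gli3 MNP list, were added after seeing the data. Programs were tested on simulated data. Python 3.11.15, numpy 2.4.6, pandas 2.3.3, scipy 1.17.1 and statsmodels 0.14.6 were used.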

Additional observations from a re-analysis of the deposited data

Results flagged for a closer look

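The canonical Gli motif separated the classes more widely in whole face Gli3 peaks that touch no Gli3 MNP peak than in those that do. The odds ratio of GACCACCC, with against without Hand2, was 0.252 in peaks found only in the whole face (n = 3590 peaks) and 0.481 in peaks shared with the MNP (n = 2162 peaks), and these odds ratios differed by the Breslow-Day test (adjusted p = 2.7e-04 over 8 features). In percentage points the differences were -15.8 (95% interval -17.9 to -13.5) and -12.4 (-16.0 to -8.87). The odds ratios of the other 7 features did not differ past the threshold (lowest adjusted p 0.85). Without the chromosome 8 array the odds ratios were 0.498 in the MNP (n = 2125 peaks) and 0.253 outside it (n = 3584 peaks, p = 1.4e-05). Without promoter peaks they were 0.408 (n = 1522 peaks) and 0.249 (n = 3146 peaks, p = 0.0037). Peaks shared with the MNP also had lower order numbers. In a logistic model over all peaks (n = 2162 and n = 3590 peaks) with 10 bins of order number they were 0.450 and 0.251 (p = 2.2e-04). With a further term for Hand2 by order number they were 0.349 and 0.275 (n = 2162 and n = 3590 peaks) and did not differ past the threshold (p = 0.23), so the difference was not separated from order number. All of these count peaks, not embryos. These comparisons were chosen after seeing the data.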

How the results depend on the processing

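The differences in GACCACCC, in CAGATG and in peaks that touch a Gli3 MNP peak kept their direction and passed the threshold under all alternatives run for them. Of 165 alternatives over all results, 123 gave the same call, 21 turned the direction, 12 lost and 4 gained a call and 5 moved a count. Most turns were in the intron and intergenic shares, which differed little and passed no test. Alternatives on order number and near-identical peaks were chosen after seeing the data. The cause was not tested where a value changed, apart from copies left out.

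With Hand2 covering at least 50% of the Gli3 peak, the differences with minus without Hand2 were -0.687 points for promoters, 0.964 for introns and 1.625 for intergenic sequence. With the midpoint in a Hand2 peak they were -0.7045, 0.992 and 1.603. In peaks outside the Gli3 MNP list they were 0.527, 0.642 and 0.609, and GACCTCCC differed by -1.653 points without passing the test. Promoters drawn to 5 kb gave -0.848 points. In wide peaks GACCTCCC differed by -0.587 points and 19 8-mers were called.

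In the 50% of peaks with the lowest order numbers, the differences were 0.345 points for promoters, 1.031 for introns, 1.221 for intergenic sequence, -1.50 for GACCTCCC and 4.054 for over 100 kb, which then passed. In the remaining peaks they were 3.404 for promoters, -1.241 for exons and -1.995 for GACCTCCC, none past the threshold. Stratified odds ratios for promoters were 1.158 by width, 0.963 by GC content, and 1.102 and 1.111 by coarser and finer bins of order number. For introns they were 1.03 by GC content, 1.013 and 1.009 by order number. For intergenic sequence they were 1.002 by width, 1.092 by GC content, and 1.006 by both kinds of order bin. Beyond 100 kb they were 1.264 by GC content, and 1.149 and 1.156 by order number, all past the threshold.

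Without the chromosome 8 array the intergenic difference was 0.483 points and 60 8-mers were called. With 1 peak per group sharing 25 bases the intergenic difference was 0.98 points, GACCTCCC differed by -0.430 points and 46 8-mers were called. With the single nearest TSS within 100 kb, 1584 genes had a peak with Hand2 and 1981 a peak without.

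Since heights and depth are unknown, weak binding and no binding of Hand2 cannot be told apart, and leaving out a replicate was not possible in a merged list. No paired analysis was possible because each group is 1 merged list of both replicates.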
